A study of Mus musculus with 6 samples.

Results

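Cx3cr1, the receptor for fractalkine, and Cx3cl1, the gene for fractalkine itself, were read across the cell types and libraries of a single-cell RNA sequencing study of osteoclast precursors in the mouse embryo. They are 2 of the 31054 features counted, chosen by gene symbol. The study describes 6 samples in 3 groups of 2. Embryos of one group carried Cx3cr1CreER and R26tdTomato and were exposed to 4 hydroxytamoxifen at E9.5. Embryos of the second carried Csf1r-Mer-iCre-Mer, Csf1r-EGFP and R26tdTomato and were exposed at E8.5. Macrophage and monocyte lineage cells of both were collected from whole bodies at E14.5, so both embryonic groups share a tamoxifen-switched Cre and the tdTomato reporter. The third group was total bone marrow of wildtype C57BL/6 mice aged 2 months. In the first group Cre is driven by Cx3cr1 regulatory sequence, and the labels do not say whether that allele replaces the Cx3cr1 coding sequence.

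The counts analysed here form 1 matrix of 39048 barcodes in 4 libraries, told apart only by the number 1 to 4 that ends each barcode. These numbers match no sample label, so which library came from which genotype is not known, the matrix is treated as 1 pooled sample, and no test between libraries was made. Library differences are descriptions, and every interval given covers counting error only. The difference of Cx3cr1 between libraries 1 and 2 and libraries 3 and 4 is what drew attention to the gene, so its size in macrophages is not independent evidence of anything. The question put to it is whether the ratio between libraries was the same in every cell type, as halving of the transcript by a knock-in allele would give.

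Fractalkine is made as a membrane-bound adhesion molecule on endothelial and other cells, and the metalloproteases ADAM10 and ADAM17 can shed it as a soluble attractant. CX3CR1 is a receptor coupled to inhibitory G proteins that guides and holds monocytes and macrophages. It is abundant in microglia and in macrophage precursors of the embryo, and the liver's Kupffer cells lose it as they mature. For this reason Cx3cr1 alleles are widely used to drive Cre in these cells.

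Since the promoter of Cx3cr1 is what such alleles use, the windows from 250 bases before to 50 bases after both RefSeq start sites are printed (build GRCm38.p6, 5′ to 3′ on the gene's strand). The Cx3cr1 window is chr9:120068247-120068546 on the minus strand and the Cx3cl1 window chr8:94771930-94772229 on the plus strand. Capitals mark matches, on either strand, to GAGGAA, a PU.1-type form of the ETS factor motif, and to TATAAA, the TATA box.
Cx3cr1: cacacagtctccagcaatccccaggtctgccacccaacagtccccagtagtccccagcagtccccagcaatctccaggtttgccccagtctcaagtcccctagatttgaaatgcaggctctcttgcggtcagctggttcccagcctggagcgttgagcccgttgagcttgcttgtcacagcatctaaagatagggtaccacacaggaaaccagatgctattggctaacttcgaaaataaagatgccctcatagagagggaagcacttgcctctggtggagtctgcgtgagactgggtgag
Cx3cl1: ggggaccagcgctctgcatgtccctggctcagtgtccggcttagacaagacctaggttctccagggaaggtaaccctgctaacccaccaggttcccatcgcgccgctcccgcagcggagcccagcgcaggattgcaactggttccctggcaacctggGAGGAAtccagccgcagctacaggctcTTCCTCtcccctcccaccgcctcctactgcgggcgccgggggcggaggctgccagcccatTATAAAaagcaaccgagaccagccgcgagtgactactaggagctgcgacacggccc
The Cx3cl1 window held 2 GAGGAA matches and 1 TATAAA match. The Cx3cr1 window held neither string. Shorter forms of the ETS motif, such as the GGAA visible in that window, were not searched for. Of all 32851 RefSeq promoter windows of this length, 28.3% held GAGGAA and 13.6% held TATAAA. In GENCODE, Cx3cr1 lies at chr9:119901616-120069879 on the minus strand, a 168 kb model. Its span overlaps Gorasp1, Csrnp1 and Xirp1 on the same strand and Wdr48 and Ttc21a on the plus strand. Overlap of spans does not show that exons are shared, and counts of any reads shared with those genes are uncertain. Cx3cl1 lies at chr8:94772009-94782427 on the plus strand.

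After filtering, 34372 cells remained (8368, 7063, 6982 and 11959 in libraries 1 to 4), with median depths of 13077 to 14773 unique molecular identifiers (UMIs) per cell. Marker scores for 18 cell types placed 17381 cells, or 50.6%, in a gate, whose rule asks that a cell's own markers lead. The libraries stood apart in ways that bear on what follows. Xist, expressed from the inactive X chromosome of female cells, held 491 and 473 CPM (UMIs of the gene per 1000000 UMIs) in libraries 1 and 2, against 0.190 and 0.0967 in libraries 3 and 4, and the Y-linked gene Ddx3y held 14.6, 14.1, 41.6 and 41.5 CPM. Mast cells or basophils numbered 51, 60, 565 and 797 and neutrophils 6, 5, 311 and 496. A cluster led by the chemokine gene Cxcl2 held 1.98% and 1.70% of macrophage-gated cells in libraries 1 and 2 but 26.1% and 27.7% in libraries 3 and 4. Apart from the Cxcl2-led cluster, which is left out in one comparison below, the part of these differences in the Cx3cr1 values was not tested. Libraries share 761 barcode sequences, carried by 1331 kept cells.

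Cx3cr1 was highest in microglia and next highest in tissue macrophages in every library. Microglia-gated cells, marked by Sall1 and P2ry12, held 622, 662, 1188 and 1083 CPM in libraries 1 to 4. Macrophage-gated cells, marked by Lyve1, Mrc1 and Pf4, held 316, 320, 642 and 570 CPM. In both, libraries 1 and 2 lay close together and well below libraries 3 and 4. The microglia-gated level was at least 1.85 times the macrophage-gated level in each library. It was 1.18 times where clusters named from the same markers replaced the gates, since a second cluster so named, led by Spp1, joined them. The leading genes of this second cluster also include Ms4a7 and C1qa, which are markers of the macrophage gate.

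Kupffer cell-gated cells, marked by Clec4f, Timd4 and Cd5l, held 111, 112, 212 and 169 CPM. Only 39.6% to 46.5% of them had any Cx3cr1 UMI, against 90.1% to 97.4% of macrophage-gated cells, which were somewhat deeper (median 12982 to 14447 UMIs, against 9710 to 12144). Monocyte-gated cells, marked by Ly6c2 and Ccr2, held 86.3, 68.8, 87.6 and 103 CPM. Here the libraries did not fall into the same pairs, with library 1 beside library 3. Patrolling monocyte-gated cells, the blood monocytes best known for high Cx3cr1, numbered only 107, of which 37.4% lay near the limit of the gate. They held 124 CPM (109 to 141) over all libraries, and 134, 198, 105 and 117 CPM in libraries 1 to 4. The macrophage complement genes C1qa, C1qb and C1qc stood at 3614, 4654, 1708 and 1657 CPM in them. In monocyte-gated cells those genes stood at 802, 833, 444 and 585. What part macrophage RNA had in the patrolling monocyte-gated level was not tested. Mast cell- or basophil-gated cells, marked by Cpa3, Gata2 and Ms4a2, held 163, 148, 160 and 153 CPM, and all 4 intervals overlapped. In libraries 1 and 2 these cells ranked above Kupffer cell-gated cells, without overlap of the intervals. In library 3 they ranked below, and in library 4 the intervals overlapped. As clusters, Kupffer cells held 186, 158, 312 and 280 CPM and mast cells or basophils 162, 146, 160 and 158. There Kupffer cells ranked above mast cells or basophils in every library, though in libraries 1 and 2 the intervals overlapped. Cells with at least 3 UMIs of the basophil protease genes Mcpt8 and Prss34 held 155, 148, 168 and 155 CPM, and those with none, enough only in libraries 3 and 4, held 161 and 155, so both kinds carried the same amount within counting error.

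Other cells held less. Granulocyte-monocyte progenitors held 42.2, 43.2, 22.7 and 35.1 CPM, the first from 26 cells, and neutrophils 25.4 and 49.4 CPM in libraries 3 and 4. Erythroid-gated cells, which should lack the receptor, held 21.4, 40.2, 7.50 and 27.6 CPM, with UMIs in 11.5% to 21.4% of cells at median depths of 14441 to 34294. Endothelial-gated cells held 16.0, 21.1, 40.0 and 42.5 CPM. Levels of this size are read as background. Mesenchymal-gated cells (22.3, 15.7, 44.4 and 92.7 CPM) and neural-gated cells (29.7, 87.4, 185 and 124 CPM) carried macrophage complement genes beside it. Per 1000 UMIs of C1qa, C1qb and C1qc, mesenchymal-gated cells held 40.8, 54.4, 63.5 and 72.2 Cx3cr1 UMIs, against 31.6, 31.0, 65.4 and 59.2 in macrophage-gated cells. Doublets were marked almost solely in library 3 and were otherwise not removed, so the values of these non-blood cells are not read as their own expression.

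**Figure D1:**
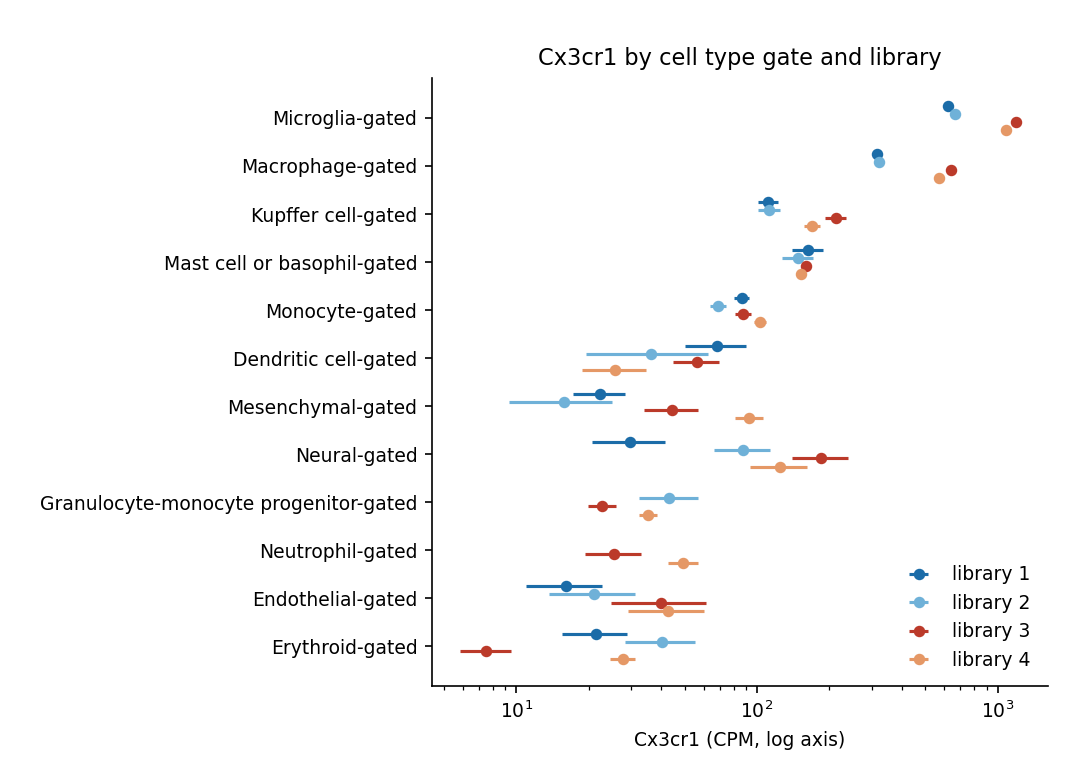
Cx3cr1 in CPM (log axis) for 12 marker gates in each of the 4 libraries, with exact Poisson 95% intervals as bars; points of fewer than 30 cells are left out. Libraries 1 and 2 lie left of libraries 3 and 4 in the microglia, macrophage and Kupffer cell gates, whereas the 4 mast cell or basophil points overlap.

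The ratio between libraries was not constant over cell types. In macrophage-gated cells, library 1 held 0.493 (95% interval 0.479 to 0.507) of the level of library 3 and 0.555 (0.540 to 0.571) of library 4, and library 2 held 0.499 (0.484 to 0.514) and 0.562 (0.546 to 0.578). In microglia-gated cells the 4 ratios were 0.523, 0.574, 0.557 and 0.612. In Kupffer cell-gated cells they were 0.525, 0.659, 0.530 and 0.665, each with an interval below 1 but wide enough to reach from 0.459 to 0.756. Where every Kupffer cell-gated cell counted equally, the highest was 0.862. The 3 macrophage types thus shared a level in libraries 1 and 2 between 0.493 and 0.665 of that in the other libraries. Even so, 3 of the 4 microglia-gated intervals and 2 of the 4 Kupffer cell-gated intervals did not hold the macrophage-gated ratio. This tally leaves out the spread between cells and the interval of the macrophage-gated ratio itself. It therefore cannot show that the 3 macrophage types differed from one another.

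Monocyte-gated cells gave ratios of 0.984 (0.885 to 1.09), 0.838 (0.764 to 0.920), 0.785 (0.703 to 0.876) and 0.668 (0.606 to 0.737), and none of these intervals held the macrophage-gated ratio. In mast cell- or basophil-gated cells, compared on 51 and 60 cells in libraries 1 and 2 and so below the 100 cells asked of other gates, the ratios were 1.02, 1.07, 0.926 and 0.971. Their intervals ran from 0.790 to 1.24 and each lay above the macrophage-gated ratio. These intervals cover counting error only, and not the spread between cells or the macrophage RNA given below for mast cell- or basophil-gated cells. The cause of the ratios was not tested. In mesenchymal-gated cells the ratios ran from 0.170 to 0.502, beside the C1q values above. In erythroid-gated cells no ratio is read, because 78.9% of all 7599 genes tested were at least 1.5-fold lower in library 1 than in library 3.

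Between the members of each pair the levels were closer. The ratio of library 1 to library 2 was 0.988 (0.957 to 1.02) in macrophage-gated, 0.939 (0.895 to 0.984) in microglia-gated and 0.991 (0.863 to 1.14) in Kupffer cell-gated cells. The ratio of library 3 to library 4 was 1.13 (1.10 to 1.16), 1.10 (1.05 to 1.15) and 1.26 (1.11 to 1.42). Monocyte-gated cells went the other way in both pairs, at 1.25 (1.13 to 1.40) and 0.852 (0.774 to 0.937).

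Monocyte-gated cells joined unlike clusters in unlike shares. Cluster 5, led by Ly6c2 and the haptoglobin gene Hp, made up 35.1% and 39.5% of them in libraries 1 and 2 but 60.5% and 51.6% in libraries 3 and 4, and it had the lowest Cx3cr1 of the clusters that filled this gate. In cluster 5 Cx3cr1 stood at 33.0, 34.6, 36.1 and 43.5 CPM, with ratios of 0.914, 0.759, 0.958 and 0.795. Cluster 0, led by Ifitm1, Cd34 and Ccr2, held 117, 112, 172 and 179 CPM, and its ratios ran only from 0.627 to 0.676. Cluster 3, led by the interferon-induced genes Ifit3, Isg15 and Rsad2, held 221, 224, 363 and 371 CPM, with ratios of 0.595 to 0.619. It also carried the C1q genes at 5897, 5895, 5534 and 5861 CPM, against 385, 373, 164 and 340 in cluster 5. What part macrophages or their RNA had in the ratios of cluster 3 was not tested. The level of cluster 5 is near levels read above as background, so its ratios are read with caution. In library 3, however, erythroid-gated cells held only 7.50 CPM. With macrophage RNA taken off in proportion to C1q, as described below, cluster 5 kept 20.8, 23.0, 25.4 and 23.4 CPM. How much of its level is its own expression was not tested.

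Dendritic and mast cells taken as clusters had ratios around 1. The clusters were made without Cx3cr1, Cx3cl1 and tdTomato. Cluster 14, led by the MHC class II genes H2-Aa, H2-Ab1 and H2-Eb1, held 104, 98.8, 104 and 96.0 CPM, with ratios of 0.952 to 1.09 and intervals from 0.811 to 1.24. The narrower dendritic cell gate held 68.0, 36.4, 56.3 and 25.7 CPM from 33 to 124 cells a library, and its ratios were scattered, at 1.21, 2.65, 0.647 and 1.42. Cluster 19, led by Cpa3 and Cma1, held 162, 146, 160 and 158 CPM, with ratios of 0.908 to 1.03. By contrast, the macrophage clusters 15 and 16 had ratios of 0.452 to 0.502 and 0.445 to 0.516, and cluster 2, led by Tlr1, Maf and Rab3il1, 0.453 to 0.589.

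Macrophage RNA in droplets of other cells moved with the libraries too. The C1q genes stood at 724 and 821 CPM in mast cell- or basophil-gated cells of libraries 1 and 2, against 95.9 and 299 in libraries 3 and 4. With Cx3cr1 of macrophage origin taken off in proportion to C1q, the ratios were 0.765 to 1.03 in cluster 19, 1.14 to 1.24 in cluster 14, 0.822 to 0.985 in cluster 5 and 0.615 to 0.712 in cluster 0. These ranges lay above the macrophage-gated ratios, although that of cluster 19 now reached below that of cluster 5. With the erythroid-gated level of each library taken off instead, the ratios ran from 0.689 to 1.08 in cluster 19, from 0.608 to 1.21 in cluster 14 and from 0.435 to 0.630 in cluster 0, where the highest macrophage-gated ratio was 0.544. Cluster 5 fell below 0 in library 2, so its ratios could not be formed there. The lowest monocyte-gated ratio fell to 0.357, below that of macrophage-gated cells, and the lowest mast cell- or basophil-gated ratio to 0.708. This subtraction took 21.4, 40.2, 7.50 and 27.6 CPM off libraries 1 to 4, the erythroid-gated levels whose ratios are not read above. Taking more off library 2 than off library 3 lowers the ratio of these libraries by arithmetic, most where Cx3cr1 is low. The falls are therefore not read as differences in expression between cell types.

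**Figure D2:**
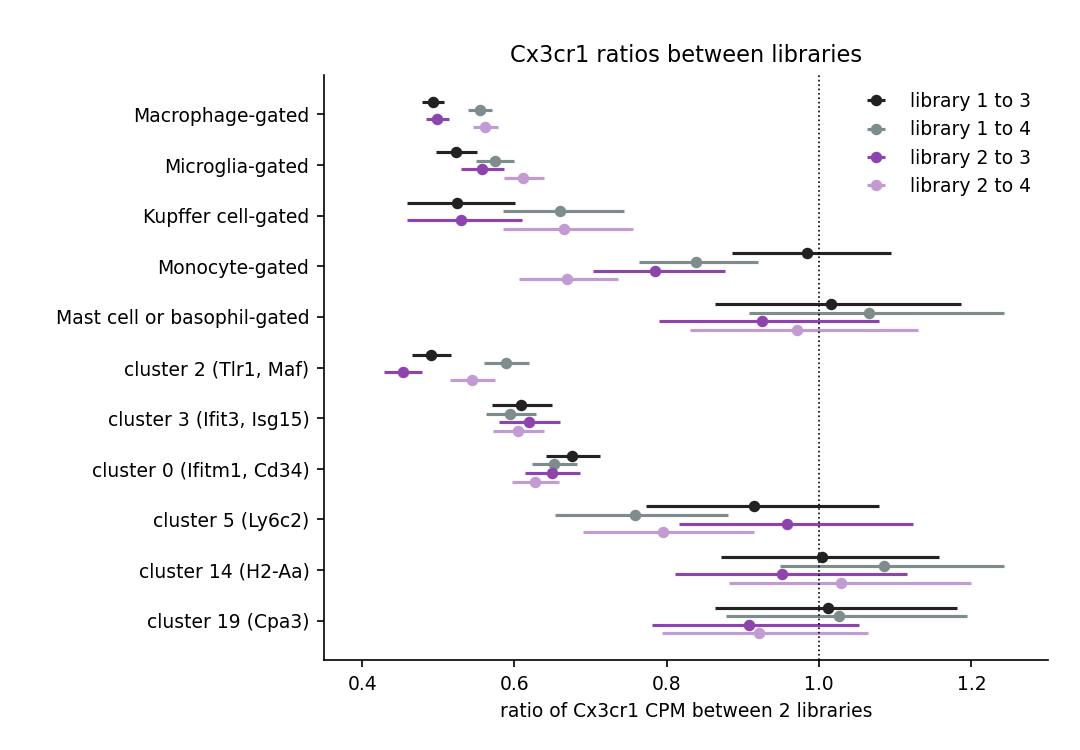
Ratio of Cx3cr1 CPM in library 1 or 2 to that in library 3 or 4 for 5 marker gates and 6 clusters (leading genes in brackets), with exact conditional binomial 95% intervals as bars and a dotted line at 1. The 3 macrophage gates and cluster 2 lie between 0.453 and 0.665, clusters 3 and 0 between 0.595 and 0.676, and the mast cell or basophil gate and clusters 14 and 19 between 0.908 and 1.09.

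The level of Cx3cr1 over all cells hid this pattern. Counted over every kept cell it was 235, 243, 253 and 252 CPM, nearly equal in the 4 libraries, while the share of cells with a Cx3cr1 UMI was higher in libraries 1 and 2 (71.5% and 74.1%) than in libraries 3 and 4 (60.3% and 58.6%). Macrophage-gated cells were 1924 of 8368 and 1705 of 7063 cells in libraries 1 and 2, and 1095 of 6982 and 1423 of 11959 in libraries 3 and 4. The libraries with less Cx3cr1 per macrophage held more macrophages.

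The lower level in macrophages was spread over the cells rather than set by a few. With each cell thinned to 2000 UMIs, 44.7%, 45.0%, 71.1% and 62.8% of macrophage-gated cells had a Cx3cr1 UMI, where a Poisson law with the same mean gives 48.5%, 48.6%, 76.9% and 69.4%. Thinning left out 13 to 57 cells a library, and without it the shares were 90.1%, 90.7%, 97.4% and 93.9%. In microglia-gated cells the thinned shares were 69.1%, 67.9%, 85.6% and 82.2%. In erythroid-gated cells they were 2.80%, 6.52%, 2.68% and 4.99%. Among macrophage-gated cells of at least 5000 UMIs the median cell held 286, 283, 601 and 534 CPM, the 10th percentile 61.8, 71.7, 184 and 179, and the 90th percentile 656, 683, 1295 and 1103. All of these quantiles were lower in both libraries 1 and 2.

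Kupffer cells differed from this only in part. Their thinned shares, 17.2%, 14.2%, 16.9% and 17.4%, did not separate the libraries. Among Kupffer cell-gated cells of at least 5000 UMIs the median cell held 0, 0, 58.3 and 59.8 CPM. The 75th percentile held 157, 134, 317 and 214 CPM and the 90th percentile 301, 398, 627 and 425. These quantiles were lower in both libraries 1 and 2, while the 10th and 25th percentiles were 0 in every library. Thinned to 4000 UMIs, 26.7%, 26.5%, 30.8% and 35% of Kupffer cell-gated cells had a UMI. A gap between libraries in how many cells had a UMI was not detectable at 2000 UMIs. Monocyte-gated cells were also broad, with thinned shares of 16.9%, 12.7%, 15.3% and 19% and 90th percentiles of 275, 257, 324 and 363 CPM above medians of 50, 0, 0 and 39.5.

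**Figure D3:**
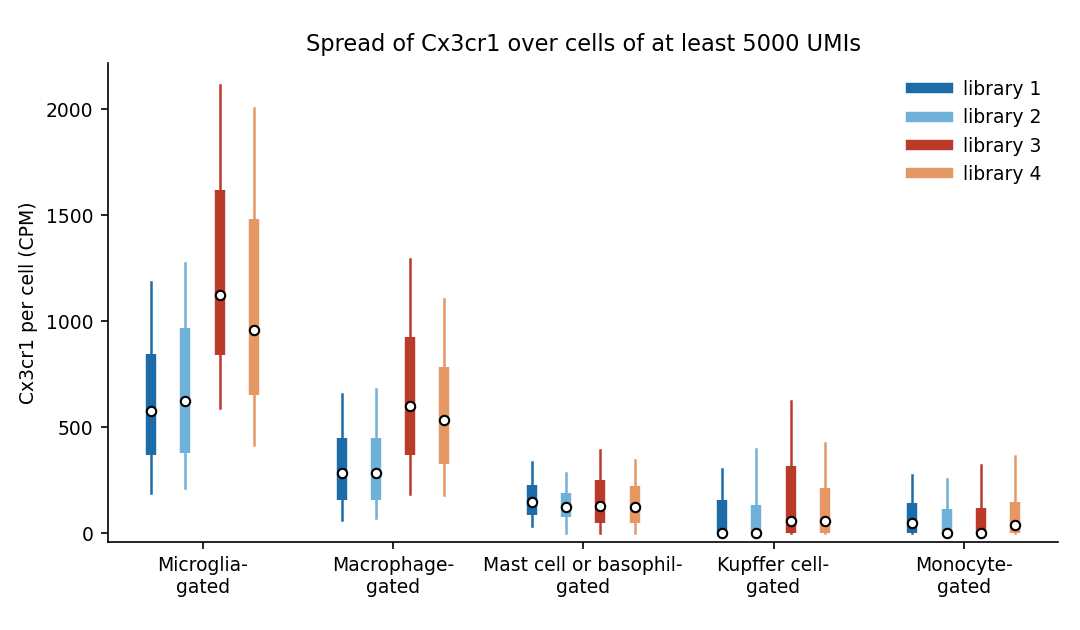
Cx3cr1 in CPM per cell for cells of at least 5000 UMIs in 5 gates and 4 libraries, with thin lines from the 10th to the 90th percentile, thick bars from the 25th to the 75th and circles at the median. The whole range is lower in libraries 1 and 2 in microglia- and macrophage-gated cells, where macrophage-gated medians are 286 and 283 CPM against 601 and 534, and not in mast cell- or basophil-gated cells.

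Set against all other genes, a gap of this size was uncommon in macrophages but not unique to Cx3cr1. In macrophage-gated cells 201 of 10837 genes, 1.85%, were at least 1.5-fold lower in libraries 1 and 2 than in libraries 3 and 4 in all 4 pairs, and Cx3cr1 was among them by the choice of the gene. The shares were 0.718% of 8081 genes in microglia-gated, 0.846% of 7213 in Kupffer cell-gated and 1.15% of 9079 in monocyte-gated cells, where Cx3cr1 did not meet the rule. In the first 3 gates together 29 of 6998 genes, 0.414%, met it, with Cx3cr1 the last of them at a smallest fold of 1.5. A single gene, Xist, did so in the other direction (0.0143%). Among the 1504 genes that reached a mean of 100 CPM in macrophage-gated cells of libraries 1 and 3, 7 were further below in library 1 than Cx3cr1.

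By smallest fold the leading 10 of the 29 were S100a9, Mpo, BC100530, Gm8797, Cpa3, Cma1, Gm12166, Gm7324, S100a8 and Il1b. Most of the named ones are genes of other cells: S100a8 and S100a9 encode the calprotectin subunits of neutrophils, Mpo the myeloperoxidase of granulocyte progenitors, and Cpa3 and Cma1 the carboxypeptidase and chymase of mast cells. S100a9 stood at 7.44, 7.47, 64.0 and 82.5 CPM in macrophage-gated cells and Cpa3 at 3.40, 3.84, 23.5 and 27.2, low levels that ran beside the numbers of neutrophils and mast cells given above. Il1b, an inflammatory cytokine gene, stood at 14.9, 13.2, 135 and 191 CPM. Cd14, a co-receptor for bacterial lipopolysaccharide, and the immediate early gene Nr4a1 also met the rule. Without the Cxcl2-led cluster the highest macrophage-gated ratio of Cx3cr1 was 0.537, so the gap was as large without those cells.

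**Figure D4:**
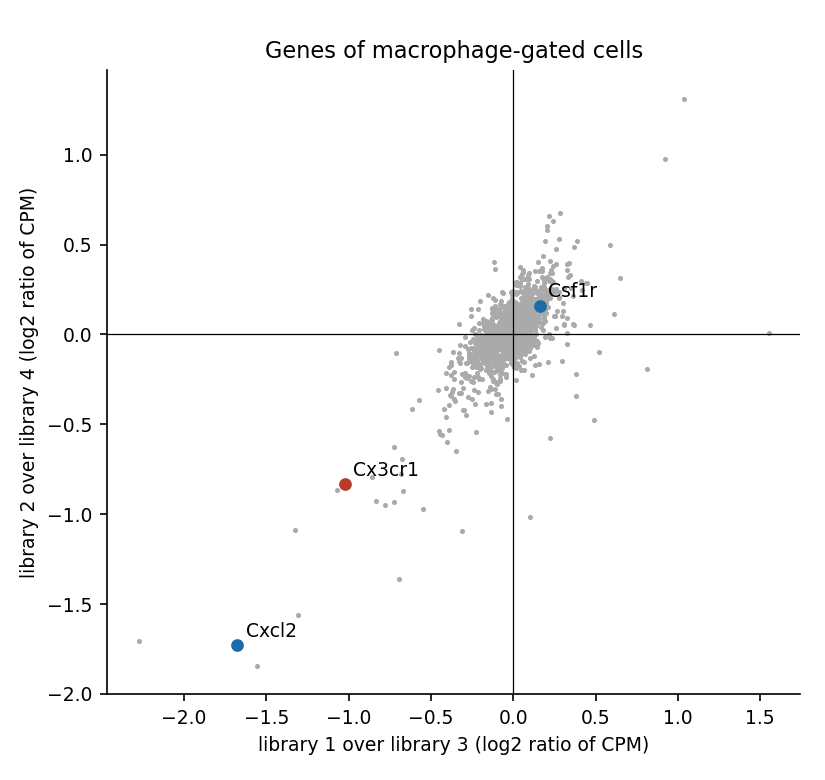
Each grey point is a gene with a mean of at least 100 CPM in macrophage-gated cells, by its log2 ratio of CPM in library 1 over library 3 (horizontal) and library 2 over library 4 (vertical). Cx3cr1 (red) lies at -1.02 and -0.83, the chemokine gene Cxcl2 lies further down, and Csf1r lies slightly above 0 on both axes; Xist, at 0 in library 3, has no point.

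The other genes of the fractalkine pathway, other chemoattractant receptors and macrophage regulators were read by the same rule. Of 55 genes in 5 lists, 52 had enough UMIs in macrophage-gated cells, of which 2, the chemokine receptor gene Cxcr4 and the transcription regulator gene Id3, were at least 1.5-fold lower in libraries 1 and 2 in all 4 pairs (background 1.85%), and none was higher (background 0.535%). None of 50 met either rule in microglia-gated cells (background 0.718% lower and 0.483% higher) or of 45 in Kupffer cell-gated cells (0.846% and 0.652%). These counts lie near the background shares. In monocyte-gated cells Cxcr4 met the lower rule, of 49 tested, where 1.15% of all genes did. Cxcr4 was scarce in macrophage-gated cells, at 0.680, 0.604, 2.56 and 4.39 CPM, and it held 5.85, 5.56, 27.0 and 28.0 CPM in monocyte-gated cells. Id3 held 24.9, 21.2, 38.3 and 54.3 CPM in macrophage-gated cells.

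Among the genes that process fractalkine, Adam10, the constitutive sheddase, ranged from 37.8 to 41.6 CPM over libraries in macrophage-gated cells and from 85.4 to 89.7 in microglia-gated cells. Adam17, the inducible sheddase, ranged from 42.9 to 48.7 and from 50.3 to 68.0 CPM. Ctss, the cathepsin that microglia release to cleave fractalkine, ranged from 843 to 919 CPM in macrophage-gated and from 3307 to 3936 in microglia-gated cells. The 5 genes of this list had a median log2 ratio of 0.04 in macrophage-gated cells, beside 0.02 for all genes tested. In Kupffer cell-gated and monocyte-gated cells, where 3 of the 5 were tested, it was 0.30 and 0.27, beside 0.01 and 0.04. Bace1 and Mmp2 stayed below 5 CPM there.

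All 20 listed genes for transducing the receptor's signal were tested in macrophage-gated cells and none met the fold, with a median log2 ratio of 0.06. Gnai2, the inhibitory G protein subunit that many chemokine receptors use, ranged from 746 to 844 CPM, Gnb1 from 120 to 138, the arrestin gene Arrb2 from 148 to 166 and the phosphoinositide 3-kinase gene Pik3cg from 37.5 to 39.7. The integrins that can bind fractalkine were led by Itgb1, at 171 to 205 CPM, with Itga4 at 39.1 to 43.3, and Itgb3 had too few UMIs.

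Of 14 regulators of macrophage identity tested in macrophage-gated cells, Id3, given above, met the rule and the other 13 did not. Klf2, a transcription factor of quiescent cells, was uneven within both pairs, at 265, 151, 316 and 137 CPM. Csf1r, the receptor for CSF1, held 1015, 1114, 908 and 997 CPM in macrophage-gated cells and 1700, 1871, 1409 and 1547 in microglia-gated cells, so libraries 1 and 2 were the higher pair. Irf8, a transcription factor of monocyte and microglia development, held 205, 213, 215 and 211 CPM in macrophage-gated cells, and Spi1, which encodes PU.1, ranged from 522 to 541. P2ry12, the purinergic receptor that marks microglia, held 925, 1066, 1050 and 1010 CPM in microglia-gated cells. The median log2 ratio of this list was -0.04 in macrophage-gated, 0.09 in microglia-gated and 0.05 in Kupffer cell-gated cells.

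Genes beside Cx3cr1 on its chromosome or inside its span were read as well. Wdr48 held 16.3, 18.1, 17.5 and 17.9 CPM and Gorasp1 17.3, 18.2, 17.9 and 18.1 CPM in macrophage-gated cells, without a gap. Csrnp1, a nuclear protein gene inside the 168 kb Cx3cr1 model, held 29.0, 29.9, 51.0 and 62.2 CPM there and met the fold, but in microglia-gated cells it held 43.7, 56.2, 55.4 and 52.5 CPM and in monocyte-gated cells 63.6, 58.6, 59.6 and 59.1. In Kupffer cell-gated cells it held 7.71, 12.4, 16.1 and 13.3 CPM, lower in libraries 1 and 2 without reaching the fold in all 4 pairs. The sodium channel genes Scn10a and Scn11a had no UMI in macrophage-, microglia-, Kupffer cell- and monocyte-gated cells, and Ttc21a and Xirp1 had fewer than 8 in any library of these gates. Beside Cx3cl1, the gene Ciapin1 met the fold in macrophage-gated cells, at 32.0, 35.9, 56.3 and 55.0 CPM. Rspry1, Arl2bp, Coq9 and Polr2c did not, and the chemokine genes Ccl17 and Ccl22 and the gene Pllp were at or near 0.

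Cells with a UMI of the tdTomato reporter could be compared with the rest within each library, a contrast that the choice of the gene did not use. In microglia-gated cells, those with a tdTomato UMI held 650, 711, 1229 and 1128 CPM of Cx3cr1 and those without 584, 552, 1006 and 904. The ratio was 1.11 (1.04 to 1.19), 1.29 (1.19 to 1.39), 1.22 (1.10 to 1.36) and 1.25 (1.16 to 1.34), above 1 in 4 of 4 libraries, at median depths that differed by less than 1000 UMIs. In macrophage-gated cells the ratios were smaller, at 1.04, 1.05, 1.07 and 1.02, and the intervals of libraries 1 and 4 held 1. In Kupffer cell-gated cells they lay below 1, at 0.720, 0.829, 0.626 and 0.50, and the interval of library 2 held 1. Kupffer cell-gated cells without tdTomato were shallower, with medians of 8729, 11505, 4835 and 4999 UMIs against 13891, 11851, 13199 and 15731, and the part of depth was not tested. Monocyte-gated cells showed no common direction (0.891, 1.37, 0.847 and 1.04). In granulocyte-monocyte progenitors of libraries 3 and 4, the only ones with enough cells, the ratios were 1.62 (1.23 to 2.13) and 1.61 (1.35 to 1.94), with deeper cells on the tdTomato side and levels of the size read above as background. A cell without a tdTomato UMI may still carry the reporter, since it was seen in only 40.0% to 55.6% of all kept cells. A tdTomato UMI may also come from free RNA or a doublet, and the part of either was not tested. Such a UMI was seen in 20.6% of mesenchymal-gated cells of library 1 and 25% of those of library 4.

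Dividing monocytes held less Cx3cr1 than others. In monocyte-gated cells with at least 3 UMIs of 14 cell cycle genes, such as Mki67 and Top2a, Cx3cr1 stood at 71.6, 58.9, 72.5 and 88.4 CPM, against 160, 115, 217 and 194 in cells with none. The ratios were 0.446 (0.357 to 0.562), 0.512 (0.392 to 0.677), 0.334 (0.259 to 0.437) and 0.457 (0.354 to 0.598), below 1 in 4 of 4 libraries. The cells without cell cycle UMIs numbered 36 to 59 a library and were shallower, with medians of 7406 to 11124 UMIs against 17790 to 20332, a difference that the definition by UMIs favours. In macrophage-gated cells the ratios were 0.961, 0.828, 0.866 and 0.755, and in microglia-gated cells 0.938, 0.795, 1.07 and 0.974. Among monocyte-gated cells with no cell cycle UMI the lowest of the 4 ratios between libraries was 0.530.

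**Figure D5:**
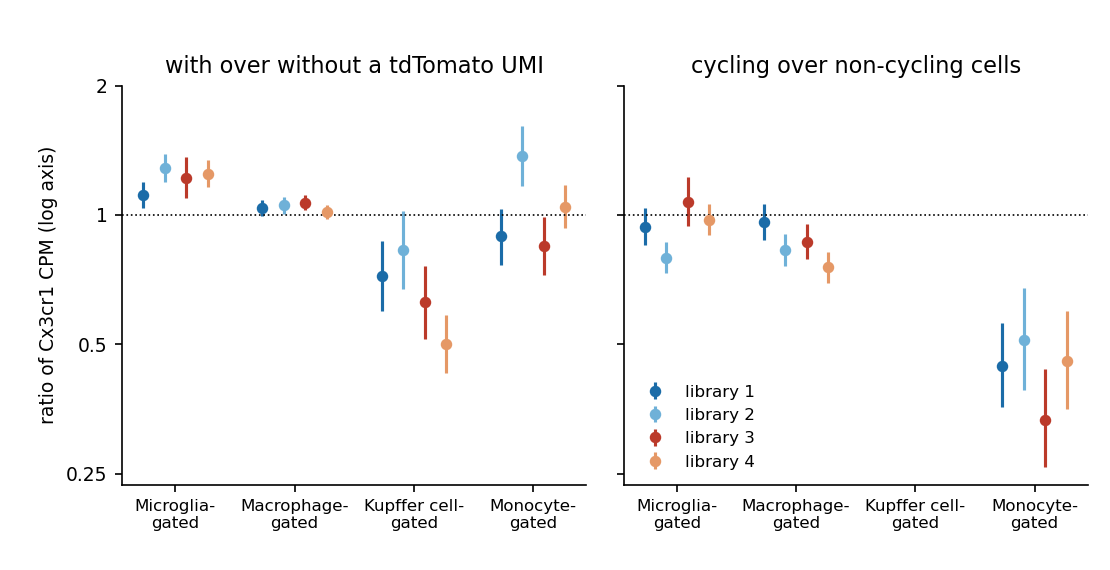
Ratio of Cx3cr1 CPM (log axis) in cells with over cells without a tdTomato UMI (left) and in cycling over non-cycling cells (right) of 4 gates and 4 libraries, with exact conditional binomial 95% intervals and a dotted line at 1. Microglia-gated points lie above 1 on the left, at 1.11 to 1.29, and monocyte-gated points below 1 on the right, at 0.334 to 0.512; Kupffer cell-gated cells had too few non-cycling cells for the right panel.

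The genes most like Cx3cr1 were ranked by the lowest Pearson r of the 4 libraries, on log2(CPM + 10) over the 8, 6, 10 and 10 gates with at least 100 cells and among 6152 genes of at least 50 CPM in a gate. Man2b2, a lysosomal mannosidase gene, came first with a lowest r of 0.911. Wwp2 (0.883), the lipid hydrolase genes Abhd12 (0.882) and Daglb (0.877), Ang (0.876), the prostaglandin D synthase gene Hpgds (0.873), Tpp1, Slco2b1, Cryba4 and Ltc4s (0.865) followed. All points of a library share its depth and free RNA, and the high r rests on the steps from other cells to macrophages and microglia. Hpgds, for example, held 444, 460, 535 and 516 CPM in microglia-gated, 392, 396, 400.5 and 412 in macrophage-gated and 71.0, 72.8, 40.0 and 51.8 in monocyte-gated cells. None of the 10 shared the drop of Cx3cr1 in libraries 1 and 2 of macrophage-gated cells: Man2b2 held 42.8, 46.2, 33.7 and 36.2 CPM there, Abhd12 282, 304, 287 and 303, and Wwp2 90.8, 87.3, 94.2 and 103.

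Cx3cl1 was nearly absent from these cells. It had 62, 32, 42 and 71 UMIs in all kept cells of libraries 1 to 4, or 0.499, 0.304, 0.347 and 0.361 CPM. Endothelial-gated cells, the classic source of fractalkine, had the highest level, 5.60 CPM (95% interval 3.63 to 8.27), from 25 UMIs in 310 cells. They held 12, 3, 6 and 4 UMIs in libraries 1 to 4, so all libraries had some. Dendritic cell-gated cells had 16 UMIs, 3.75 CPM (2.14 to 6.09), of which 15 came from libraries 3 and 4. The intervals of these 2 cell types overlapped, and in the wider dendritic cluster 14 the level was 1.5 CPM.

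Neural-gated cells had 7 Cx3cl1 UMIs, 2.72 CPM (1.09 to 5.60), and 1.03 CPM in the neural cluster. Macrophage-gated cells had 35 UMIs but only 0.403 CPM (0.281 to 0.561), mesenchymal-gated cells 5 UMIs, 0.641 CPM (0.208 to 1.5), and monocyte-gated cells 6 UMIs, 0.162 CPM. Erythroid-gated cells had none, which is at most 0.163 CPM by the exact interval. Macrophage-gated cells lay above this limit. Microglia-gated cells had 3 Cx3cl1 UMIs and Kupffer cell-gated cells 1. Differences of Cx3cl1 between libraries were not detectable at this depth.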

How the data were processed

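Single cells were prepared with a 10x Genomics 3′ kit, per the labels' protocols. The deposited values are UMI counts per gene and barcode for 4 libraries in 1 matrix, made by the authors with Cell Ranger (2.1.1 per the submitters' processing notes, 3.0.1 per the file headers) on mm10. The members and gene lists were chosen with earlier results of these data known. Kept cells had at least 1000 UMIs, 500 genes and at most 10% mitochondrial UMIs, which removed 4461 barcodes, and 215 more were removed as Scrublet doublets (1, 0, 214 and 0 by library, so the caller did not work in libraries 1, 2 and 4). A cell entered a gate when the mean of its scaled markers passed 0.2 and 2 times the next type. This scoring was picked after looser and stricter settings, and Cx3cr1 by cluster, had been seen. Clusters (scanpy 1.11.5) took their names from the same markers, with at least 2 of them among the top 10 genes, a rule added after the clusters were seen.

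Counts were summed per gate and library and divided by total UMIs, with exact Poisson intervals for levels, exact conditional binomial intervals for ratios and exact binomial intervals for shares (95%). Ratios needed 100 cells a library and 50 UMIs a pair. With no barcode assigned to a sample there were no replicates and no tests. The ratio calculation was tested on simulated data. Genes named are the members, the 10 most like Cx3cr1, the first 10 that shared its gap in 3 gates and the listed genes. Also named are 4 neighbours on each side, ordered by start position. For Cx3cr1 the 4 with later starts lie inside its gene model, so no gene beyond that end was read. Some genes of these sets are not reported here. Alternatives included edgeR 4.0.16 TMM factors. Cd14, Nr4a1, Xist, Ddx3y, Hp, Cxcl2 and the cluster 0, 2, 3, 5, 14 and 19 comparisons were picked after their values were seen.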

Additional observations from a re-analysis of the deposited data

How the results depend on the processing

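In macrophage-, microglia- and Kupffer cell-gated cells all ratios of libraries 1 and 2 to libraries 3 and 4 stayed below 1 under every alternative run, from 0.441 to 0.578, 0.508 to 0.692 and 0.353 to 0.862. The highest macrophage-gated ratio, 0.562, was 0.507 with named clusters, 0.517 in cells with no cell cycle UMI, 0.537 without the Cxcl2-led cluster and 0.544 with the erythroid-gated level subtracted. The highest microglia-gated ratio, 0.612, was 0.585 with named clusters, 0.678 with equal weight for cells and 0.692 in cells with no cell cycle UMI. The highest Kupffer cell-gated ratio, 0.665, was 0.862 with equal weight. The lowest monocyte-gated ratio, 0.668, was 0.759 with named clusters, 0.530 in cells with no cell cycle UMI and 0.357 after the erythroid subtraction, and the lowest mast cell or basophil ratio, 0.926, was 0.708 after it. A looser gate, the C1q and erythroid subtractions and the exclusion of the Cxcl2-led cluster were chosen after seeing the data.

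Of the ratios whose interval did not hold 1, 11 values crossed 1 under an alternative. Among ratios near 1, that of library 1 to library 3 became 1.04 in monocyte-gated cells after the C1q subtraction and 0.908 to 0.975 in mast cell- or basophil-gated cells under 5 alternatives, and ratios of library 1 to library 2 crossed 1 in several gates. The ratio of library 3 to library 4 became 0.987 in macrophage-gated and 0.990 in microglia-gated cells with no cell cycle UMI. In monocyte-gated cells it became 1.02 with a stricter gate, 1.12 in cells with no cell cycle UMI and 1.06 after the erythroid subtraction, and the ratio of library 1 to 2 became 0.954 with named clusters. That of library 3 to 4 became 2.02 in progenitors after the subtraction, 1.48 in neutrophils with doublet marks ignored and 1.06 in neutrophils with no cell cycle UMI, and 1.29 and 1.12 in mesenchymal-gated cells with a stricter gate and with named clusters. The cause was not tested.

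The lowest microglia-gated to macrophage-gated level, 1.85, was 2.04 with a stricter gate, 1.18 with named clusters, 1.72 with a looser gate and 1.72 with equal weight. Macrophage-gated over Kupffer cell-gated, 2.84, was 3.20, 1.90 and 3.35 with the stricter gate, named clusters and equal weight, and over monocyte-gated, 3.67, was 4.86, 9.98 and 3.32. Genes lower in all 4 pairs at 2-fold, or with at least 200 UMIs a pair, numbered 99 and 112 in macrophage-gated, 28 and 29 in microglia-gated, 30 and 23 in Kupffer cell-gated and 38 and 54 in monocyte-gated cells, since fewer genes qualify. The smallest gap in thinned shares between the library pairs, 17.8 percentage points in macrophage-gated and 13.1 in microglia-gated cells, was 3.21 and 0.676 unthinned, where most cells have a UMI. Cx3cl1 in dendritic and neural clusters was 1.5 and 1.03 CPM. Of the 10 genes most like Cx3cr1, 6 remained with log2(CPM + 1) and 1, Man2b2, with Spearman. Kupffer cell-gated cells with no cell cycle UMI were too few to run. No paired analysis was possible because the matrix carries no sample or replicate number and no result comes from a test.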
